A study of Mus musculus with 3 samples.

Results

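B2m, H2-D1, H2-K1, Bst2 and Ifitm3 were followed through single-cell transcriptomes of the mouse dentate gyrus, in every cell class and in all 3 deposited libraries. They are 5 of the 15535 genes listed in at least 1 library, and were picked by name. The runner library came from 8-week-old mice, littermates of the controls, housed with a running wheel for 12 days. The aged library came from 14-month-old mice without a wheel, and the control library from 8-week-old mice in standard housing. The strain label is hGFAP-eGFP for all 3 libraries, a reporter in which a human GFAP promoter drives eGFP, whereas the design text describes wild-type adults and gives the reporter with the aged animals alone. Each group was a single library, so no test between groups was possible. How many mice each library pools, and which H2 haplotype they carry, the labels do not say. Each 95% interval below covers counting error only, not the spread between mice.

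MHC class I molecules show peptides from inside a cell to CD8 T cells. H2-D1 and H2-K1 encode the classical heavy chains, and B2m encodes beta-2 microglobulin, the light chain without which a heavy chain does not reach the surface in stable form. Bst2 (tetherin) holds budding virus particles at the cell membrane, and Ifitm3 hinders virus entry by fusion. All of these genes respond to interferons, and in the healthy brain their transcripts are known mainly from microglia and blood vessel cells, with MHC class I also described on neurons, where it takes part in synapse remodelling.

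In the GRCm38 annotation, B2m lies at chr2:122147686-122153083 on the plus strand with 4 exons and overlaps Patl2 on the opposite strand. H2-D1 lies at chr17:35262730-35267499 on the plus strand and H2-K1 at chr17:33996017-34000347 on the minus strand, each with 8 exons. Bst2 lies at chr8:71534255-71537456 on the minus strand with 5 exons, and Ifitm3 at chr7:141009586-141010770 on the minus strand with 2 exons. Their promoter windows are shown because these genes are grouped by their response to interferons, and interferon signalling is known to act through short words in such windows. Each RefSeq window (GRCm38.p6) is printed 5′ to 3′ on the gene's strand, and covers 250 bases before to 50 bases after the start site, at chr2:122147437-122147736 for B2m, chr17:35262844-35263143 for H2-D1, chr17:34000298-34000597 for H2-K1, chr8:71537423-71537722 for Bst2 and chr7:141010695-141010994 for Ifitm3. H2-K1 had 2 listed start sites, of which the first is shown. Capitals mark matches on either strand to AANNGAAA, the core read by interferon regulatory factors, to its longer form in the interferon-stimulated response element, in which the core follows GA, and to GGGGATTCCCC, a kappa B site.
B2m: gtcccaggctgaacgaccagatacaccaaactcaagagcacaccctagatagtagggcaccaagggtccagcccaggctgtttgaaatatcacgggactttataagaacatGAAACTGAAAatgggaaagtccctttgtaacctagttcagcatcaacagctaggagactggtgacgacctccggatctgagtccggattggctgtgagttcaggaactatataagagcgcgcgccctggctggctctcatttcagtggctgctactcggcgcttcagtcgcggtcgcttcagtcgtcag
H2-D1: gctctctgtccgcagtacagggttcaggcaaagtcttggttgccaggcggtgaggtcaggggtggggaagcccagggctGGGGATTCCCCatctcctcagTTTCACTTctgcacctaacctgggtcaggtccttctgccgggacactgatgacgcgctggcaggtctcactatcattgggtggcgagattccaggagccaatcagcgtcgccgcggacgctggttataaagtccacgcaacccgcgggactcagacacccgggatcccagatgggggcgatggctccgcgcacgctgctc
H2-K1: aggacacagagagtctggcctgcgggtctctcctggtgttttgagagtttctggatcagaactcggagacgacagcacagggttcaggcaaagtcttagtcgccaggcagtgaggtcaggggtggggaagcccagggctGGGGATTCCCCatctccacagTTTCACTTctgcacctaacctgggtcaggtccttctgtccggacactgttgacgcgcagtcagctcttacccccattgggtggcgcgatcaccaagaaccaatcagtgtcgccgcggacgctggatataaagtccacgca
Bst2: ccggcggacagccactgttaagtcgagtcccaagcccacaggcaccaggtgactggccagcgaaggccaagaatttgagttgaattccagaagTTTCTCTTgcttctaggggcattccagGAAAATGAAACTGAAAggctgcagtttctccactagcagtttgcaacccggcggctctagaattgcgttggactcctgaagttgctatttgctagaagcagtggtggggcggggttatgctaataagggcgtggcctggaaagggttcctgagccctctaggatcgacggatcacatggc
Ifitm3: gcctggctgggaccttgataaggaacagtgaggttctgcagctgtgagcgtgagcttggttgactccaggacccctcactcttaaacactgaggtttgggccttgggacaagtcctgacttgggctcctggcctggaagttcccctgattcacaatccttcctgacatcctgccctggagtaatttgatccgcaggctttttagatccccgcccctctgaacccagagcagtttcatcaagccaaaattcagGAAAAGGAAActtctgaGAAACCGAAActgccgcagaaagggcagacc

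The core AANNGAAA was present in 5 of the 5 windows, and in 23.9% of 32841 mouse promoter windows of the same length. The longer form was present in B2m at bases -139 to -130 from the start site, in Bst2 at -130 to -121 and -124 to -115, and in Ifitm3 at 3 to 12 and 20 to 29, against 3.44% of all windows. H2-D1 and H2-K1 carried the core alone, as TTTCACTT on the opposite strand, and a complete GGGGATTCCCC just upstream of it, at -171 to -161 in H2-D1 and -111 to -101 in H2-K1. That kappa B word was present in 10 of all 32841 windows (0.0305%). Only this exact word was searched, so other forms of kappa B site were not counted in the 5 windows or in the rest. Laid side by side without gaps, the H2-D1 and H2-K1 windows were the same at 176 of 240 aligned bases (73.3%). An alignment that allows gaps was not made and could match more bases. A match is a description of the letters and not a measured binding site.

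The 3' libraries count the ends of transcripts, so shared 3' ends matter for closely related genes. Of the 451 stretches of 50 bases in the last 500 bases of each transcript, 0 were shared with another gene for B2m and Bst2, 2 for H2-K1, 43 for H2-D1 and 63 for Ifitm3. The shared stretches of Ifitm3 belonged to Ifitm1, Ifitm2 and 3 predicted genes, and those of H2-D1 to many genes that carry the same stretch and to H2-K1. No stretch of 90 bases was shared by any of the 5. How far reads of other genes add to H2-D1 or Ifitm3 was not tested.

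The libraries held 3328 runner, 2421 aged and 2356 control barcodes with 3808360, 2537567 and 2330698 unique molecular identifiers (UMIs, counts of distinct captured transcripts). Mitochondrially encoded transcripts made up a median of 42.9%, 46.3% and 36.6% of UMIs. The limits of at least 200 genes and under 10% mitochondrial UMIs were met by 969 runner, 393 aged and 514 control barcodes. After removal of barcodes called as doublets, 963 runner, 391 aged and 512 control cells were used. Barcodes were clustered without the 5 genes and without 97 listed interferon and MHC genes, so that these genes did not define the classes. Clusters were named from marker genes, so a name ending in "-like" means that the cluster's leading genes fit that type. Microglia-like cells were the largest class with 354 runner, 201 aged and 244 control cells, all 13 microglial markers had UMIs in each library, and their median depth was 1500 UMIs. Endothelial-like cells numbered 1, 2 and 16, so that their levels rest on the control library, and 10 of the 11 perivascular-macrophage-like cells were from the runner library. The mature-neuron-like cluster had Meg3 and Atp1b1 among its leading genes and could not be split into granule and pyramidal neurons. A cluster of 14 cells led by Ccl5, AW112010 and S100a11, with Ltb, Trbc2 and Lck further down, had a single detected T or NK cell marker and stays unnamed. Of the cells used, 2 barcodes were shared by the runner and aged libraries and 0 by the other pairs.

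B2m, the light chain, did not separate the libraries in microglia-like cells and was far lower in the other neural classes. In microglia-like cells it had 2469 CPM (counts per 1000000 UMIs) in the runner library (1427 UMIs), 2507 CPM in the aged library (746 UMIs) and 2534 CPM in the control library (911 UMIs). The 3 intervals overlapped, from 2342 to 2600 CPM in runner, 2330 to 2693 CPM in aged and 2372 to 2704 CPM in control. The control endothelial-like cells stood beside them at 3024 CPM (65 UMIs, 2334 to 3854), and the runner perivascular-macrophage-like cells at 2245 CPM (29 UMIs). A cluster of 28 cycling cells had 2189 CPM in runner (105 UMIs), 1281 CPM in aged (6 UMIs) and 901 CPM in control (17 UMIs). That cluster mixed neural and immune genes. Sox11, Stmn1 and Ccl4 were among its leading genes, and the MHC class II genes Cd74 and H2-Aa had 3048 and 1146 CPM in it. Its levels are therefore not those of 1 cell type, and 1 of its cells held 30 of the 128 B2m UMIs. In astrocyte-like cells B2m had 262 CPM in runner, 244 CPM in aged and 288 CPM in control. OPC-like cells, which resemble oligodendrocyte precursors, had 222, 314 and 169 CPM in runner, aged and control, from 20, 12 and 9 UMIs. Both classes lay below the microglia-like cells in each library, with no overlap of the intervals. Over the 3 libraries together, the order went on with mature-neuron-like cells at 106 CPM (68.9 to 155), Cajal-Retzius-like cells at 73.7 CPM (43.0 to 118), oligodendrocyte-like cells at 72.4 CPM (48.1 to 105) and neuroblast-like cells at 27.3 CPM (13.6 to 48.8). Neighbours in that order overlapped, and so did astrocyte-like cells at 264 CPM and OPC-like cells at 226 CPM.

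H2-D1, the first of the classical heavy chains, followed another order, in which OPC-like and Cajal-Retzius-like cells stood well above the other neural classes. In microglia-like cells it had 1073 CPM in runner (620 UMIs, 990 to 1161), 1173 CPM in aged (349 UMIs, 1053 to 1302) and 1344 CPM in control (483 UMIs, 1226 to 1469). The runner interval ended below the start of the control interval, and the aged interval overlapped both. The control endothelial-like cells had 3582 CPM (77 UMIs, 2827 to 4477), above the microglia-like cells of the same library. The runner perivascular-macrophage-like cells had 2168 CPM (28 UMIs, 1441 to 3133), also above the microglia-like cells of their library. The cycling cells had 699 CPM in the 3 libraries together (519 to 922). OPC-like cells had 433 CPM in runner (39 UMIs, 308 to 592), 524 CPM in aged (20 UMIs, 320 to 809) and 450 CPM in control (24 UMIs, 288 to 670). Their intervals overlapped one another, and each lay below the microglia-like interval of its own library. Cajal-Retzius-like cells, reelin-producing neurons of the outer layer, had 285 CPM in runner (35 UMIs), 129 CPM in aged (6 UMIs) and 245 CPM in control (15 UMIs). In the 3 libraries together, OPC-like cells at 457 CPM (364 to 567) lay above Cajal-Retzius-like cells at 243 CPM (184 to 315), and these above astrocyte-like cells at 117 CPM (83.9 to 160). Neuroblast-like cells at 109 CPM, oligodendrocyte-like cells at 69.8 CPM and mature-neuron-like cells at 28.4 CPM closed the order, with overlap between neighbours. The unnamed cluster led by Ccl5 had 6713 CPM in runner (38 UMIs), 3571 CPM in aged (18 UMIs) and 5222 CPM in control (4 UMIs).

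**Figure D1:**
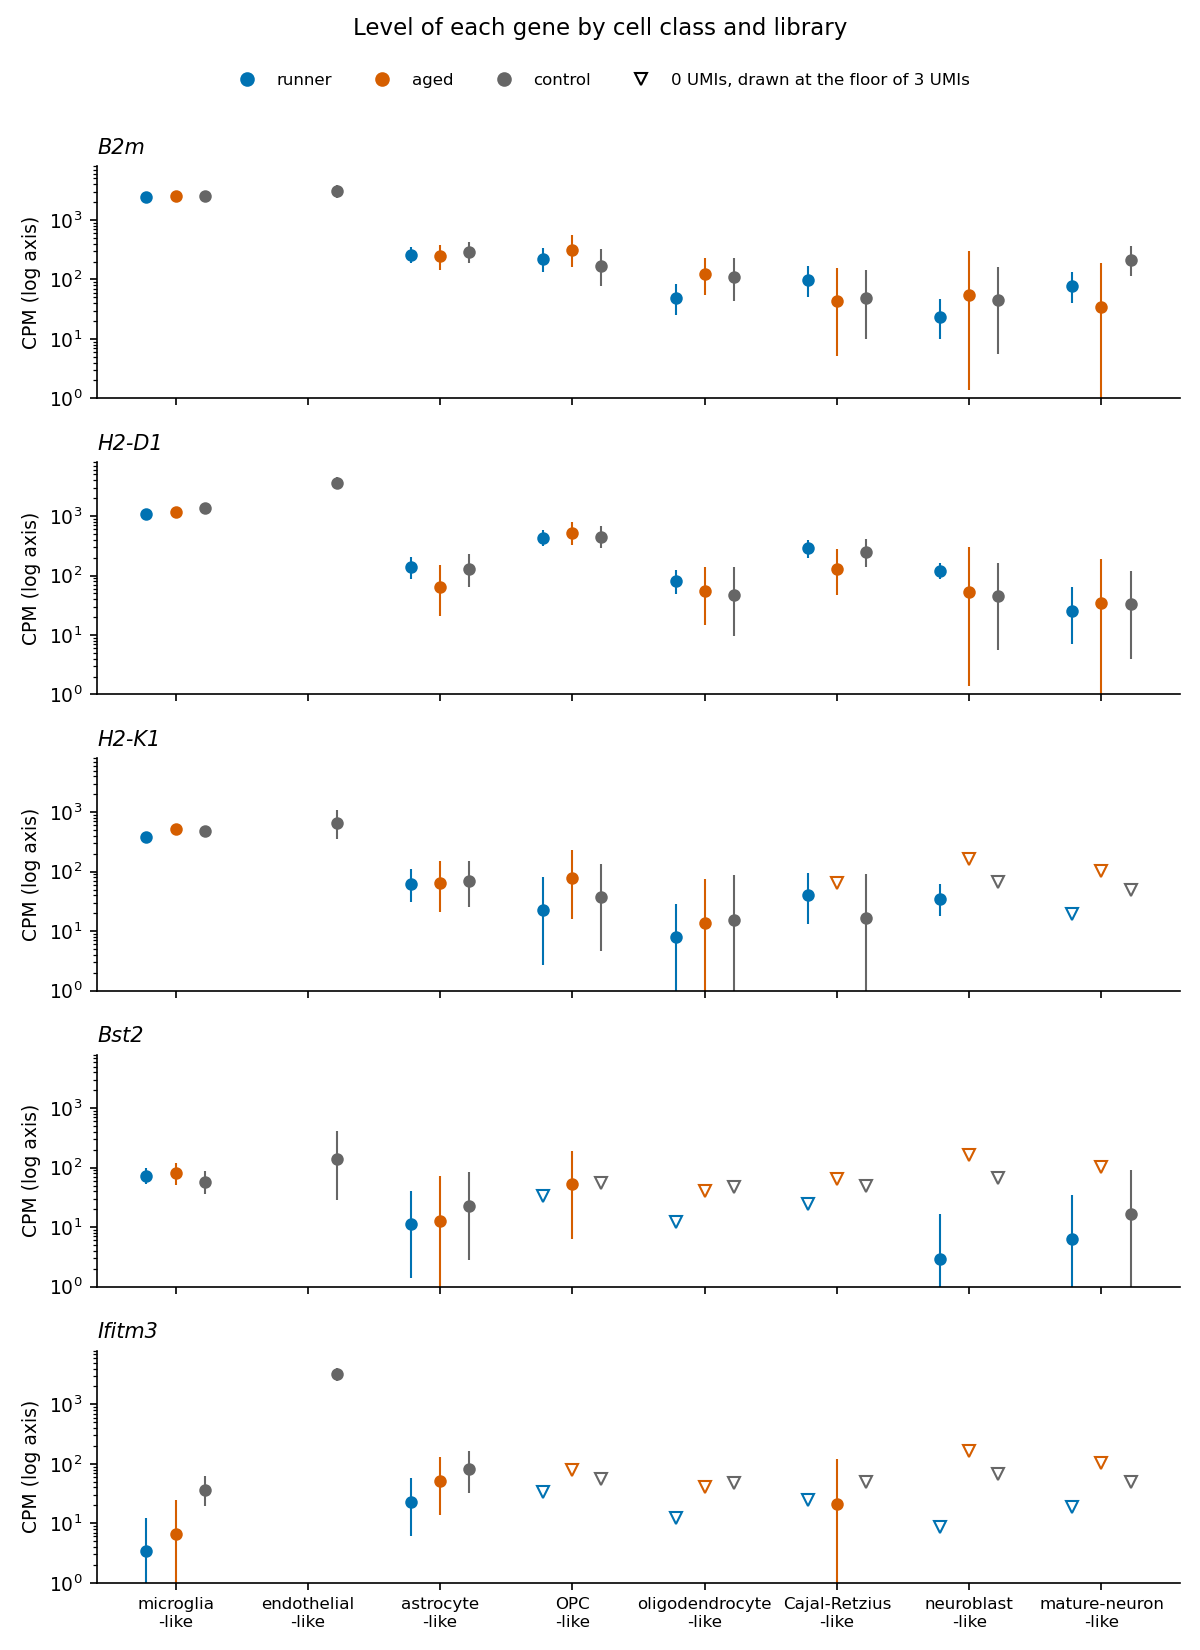
CPM of each gene (log axis) by cell class, 1 point per library with at least 10 cells of the class, in the order runner, aged, control, with bars for the 95% counting interval and open triangles for 0 UMIs at the floor of 3 UMIs. Among the 8 classes drawn, B2m and H2-D1 are highest in microglia-like and endothelial-like cells, H2-D1 has a second step in OPC-like and Cajal-Retzius-like cells, and Ifitm3 stands high in the endothelial-like cells alone, at 3210 CPM.

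OPC-like and Cajal-Retzius-like cells also stood above the other neural classes in the share of cells with an H2-D1 UMI, once each cell was thinned to 1000 UMIs and shallower cells were left out. H2-D1 was then seen in 46.3% of OPC-like cells (37 of 80, 11 left out), against 59.3% before thinning (54 of 91). It was seen in 21.1% of thinned Cajal-Retzius-like cells (28 of 133, 14.5 to 29.0%) and in 12.3% of neuroblast-like cells (25 of 204, 8.09 to 17.6%). These 2 intervals overlapped, while that of OPC-like cells (35.0 to 57.8%) lay above both. H2-D1 was seen in 8.67% of astrocyte-like cells, in 5.26% of oligodendrocyte-like cells and in 3.37% of mature-neuron-like cells, the neural class with the lowest H2-D1 level. Before thinning the median depth was 1854 UMIs in OPC-like cells, 1503 in Cajal-Retzius-like cells, 1287.5 in astrocyte-like cells and 2140 in mature-neuron-like cells, so the class with the lowest share was the deepest. B2m was seen in 22.5% of the thinned OPC-like cells and in 7.52% of the thinned Cajal-Retzius-like cells. In thinned OPC-like cells 18 had B2m, 37 had H2-D1 and 11 had both, where 8.33 would have both if the genes were unrelated. No OPC-like cell had more than 5 UMIs of H2-D1, and 22 of 91 had at least 2. Among thinned microglia-like cells, 62.3% in runner, 60.4% in aged and 68.7% in control had H2-D1. Before thinning, the highest microglia-like cell had 9 UMIs of it in runner, 9 in aged and 10 in control.

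H2-K1, the other classical heavy chain, was far higher in the immune, vessel and cycling classes than in the neural ones. In the 3 libraries together it had 959 CPM in the unnamed cluster led by Ccl5 (11 UMIs, 479 to 1716), 800 CPM in perivascular-macrophage-like cells (11 UMIs, 399 to 1432), 574 CPM in endothelial-like cells (340 to 907), 440 CPM in microglia-like cells (403 to 478) and 433 CPM in cycling cells (294 to 615). The neighbours in that order overlapped. In the mixed cycling cluster 10 of 28 cells had H2-K1, and 1 cell held 13 of the 31 UMIs. H2-K1 had 377 CPM in runner microglia-like cells (218 UMIs, 329 to 431), 517 CPM in aged (154 UMIs, 439 to 606) and 476 CPM in control (171 UMIs, 407 to 553). The runner interval ended below the aged one and overlapped that of control. Control endothelial-like cells had 651 CPM from 14 UMIs. Astrocyte-like cells had 62.6 CPM in runner, 64.2 CPM in aged and 69.0 CPM in control. OPC-like cells had 2, 3 and 2 UMIs in runner, aged and control, which is 38.6 CPM in the 3 libraries together (15.5 to 79.4). Neuroblast-like cells had 12 UMIs in runner (35.2 CPM) and 0 in the few aged and control cells, and mature-neuron-like cells had 0 UMIs in 103 cells, which allows up to 12.2 CPM.

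Most Bst2 UMIs lay in microglia-like cells, which had 72.7 CPM in runner (42 UMIs), 80.6 CPM in aged (24 UMIs) and 58.4 CPM in control (21 UMIs), with overlapping intervals. The runner perivascular-macrophage-like cells had 542 CPM from 7 UMIs (218 to 1117), above the runner microglia-like interval of 52.4 to 98.2 CPM. Over the 3 libraries together, endothelial-like cells had 191 CPM from 6 UMIs (70.2 to 417) and the cluster led by Ccl5 had 174 CPM from 2 UMIs (21.1 to 630), and both intervals overlapped that of the microglia-like cells at 70.4 CPM (56.4 to 86.9). Astrocyte-like cells had 5 UMIs, OPC-like and mature-neuron-like cells 2 each and neuroblast-like and cycling cells 1 each. Oligodendrocyte-like and Cajal-Retzius-like cells had 0 UMIs, which for oligodendrocyte-like cells allows up to 7.76 CPM.

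Ifitm3 separated from the MHC class I genes, since it was high in endothelial-like cells and low in microglia-like cells. The 16 control endothelial-like cells had 3210 CPM (69 UMIs, 2498 to 4063), and every one of them carried Ifitm3, with 1 to 12 UMIs per cell and a median of 4. The single runner endothelial-like cell had 3 UMIs and the 2 aged ones 11. In the control library 77.5% of all Ifitm3 UMIs lay in endothelial-like cells, which were 3.13% of its cells, whereas 86.1% of B2m UMIs and 76.9% of H2-D1 UMIs lay in microglia-like cells. Microglia-like cells had 2 Ifitm3 UMIs in runner (3.46 CPM), 2 in aged (6.72 CPM) and 13 in control (36.2 CPM). Of those 13 UMIs, 9 came from 1 cell with 3341 UMIs in all, which also held 135 UMIs of microglial markers, 1 of endothelial markers, 28 of B2m and 10 of H2-D1. Astrocyte-like cells had 4, 4 and 7 UMIs in runner, aged and control (22.8, 51.4 and 80.5 CPM), in 11 of 240 cells, and 0 of these 11 cells carried an endothelial marker gene. Such a gene was as rare in astrocyte-like cells without Ifitm3, at 1 of 121 in runner, 1 of 48 in aged and 1 of 60 in control. The 0 of 11 therefore does not set the cells with Ifitm3 apart. The cluster led by Ccl5 had 5 Ifitm3 UMIs, perivascular-macrophage-like cells 4 and cycling cells 3. OPC-like, oligodendrocyte-like, neuroblast-like and mature-neuron-like cells had 0 UMIs, which allows up to 16.5, 7.76, 7.44 and 12.2 CPM.

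Of the 6 relatives of Ifitm3 on a list, 2 were listed. Ifitm2, which shares stretches of its 3' end with Ifitm3, was singled out after its values were seen. It had 55 UMIs in Cajal-Retzius-like cells (239 CPM), where Ifitm3 had 1 UMI, and 19 UMIs in endothelial-like cells (606 CPM). It also had 16 UMIs in perivascular-macrophage-like cells (1164 CPM) and 6 UMIs in microglia-like cells (4.86 CPM). Ifitm10 was the one gene of the list measured in microglia-like cells, with 84.8 CPM in runner, 73.9 CPM in aged and 69.5 CPM in control, and log2 ratios of 0.27 in runner and 0.09 in aged.

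With the UMIs of all cells of a class added up in each library, the ratio of H2-D1 to B2m was higher in OPC-like and Cajal-Retzius-like cells than in microglia-like cells. There were 0.434 H2-D1 UMIs per B2m UMI in runner microglia-like cells, 0.468 in aged and 0.530 in control. In OPC-like cells the ratio was 1.95 in runner, 1.67 in aged and 2.67 in control. The ratio in OPC-like cells was 4.49 times that in microglia-like cells in runner (2.53 to 8.19), 3.56 times in aged (1.64 to 8.08) and 5.03 times in control (2.23 to 12.4). The higher ratio in OPC-like cells was present in each library on its own. Cajal-Retzius-like cells had 2.92 H2-D1 UMIs per B2m UMI in runner, 3 in aged and 5 in control, which was 7.00 times the microglia-like ratio in the 3 libraries together (3.99 to 12.9). The runner neuroblast-like cells stood at 11.8 times the microglia-like ratio (5.41 to 29.3), on 41 H2-D1 and 8 B2m UMIs. The unnamed cluster led by Ccl5 stood at 4.39 times (2.76 to 7.13) and endothelial-like cells at 2.19 times (1.62 to 2.98). Astrocyte-like cells at 0.944 times (0.630 to 1.39) and mature-neuron-like cells at 0.572 times (0.209 to 1.36) had intervals that held 1. H2-K1 per B2m was close to the microglia-like value in OPC-like cells, at 0.970 times the microglia-like ratio (0.365 to 2.20), while neuroblast-like cells, most of them from runner, had 6.20 times (2.49 to 15.6).

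**Figure D2:**
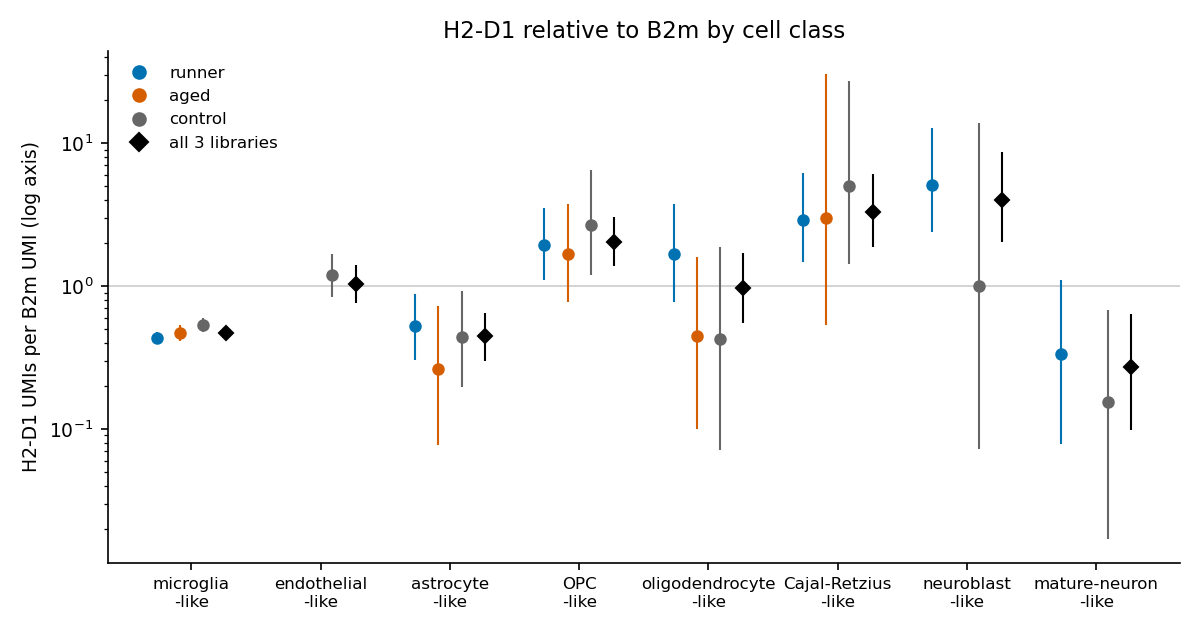
H2-D1 UMIs per B2m UMI (log axis) by cell class, with circles for runner, aged and control, diamonds for the 3 libraries together and bars for the 95% counting interval. Sums of under 20 cells are left out except for the control endothelial-like cells. Microglia-like cells sit between 0.434 and 0.530, OPC-like cells between 1.67 and 2.67, and Cajal-Retzius-like cells between 2.92 and 5.

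Free RNA from broken microglia adds microglial transcripts to other cells in one fixed ratio. The UMIs of C1qa, C1qb and C1qc in each class, which microglia and macrophages make in the brain, were therefore used to scale how many UMIs of each gene free microglial RNA would bring. Free RNA from other cells is not covered by this scale. Over the 3 libraries together, H2-D1 had 2998 CPM in endothelial-like cells and 5232 CPM in the cluster led by Ccl5. In OPC-like cells 17 C1q UMIs gave an expectation of 1.21 H2-D1 UMIs, against 83 observed, which is 68.7 times as many (40.3 to 124). In Cajal-Retzius-like cells 56 H2-D1 UMIs were observed against 2.20 expected (25.4 times, 16.1 to 40.9), and in neuroblast-like cells 44 against 3.62 (12.1 times, 7.90 to 18.6). In mature-neuron-like cells 7 H2-D1 UMIs stood against 2.84 expected, and the interval of the ratio held 1 (0.930 to 5.57). B2m exceeded the estimate in astrocyte-like cells with 90 against 5.13 UMIs (17.5 times) and in OPC-like cells with 41 against 2.56 (16.0 times). In neuroblast-like cells B2m did not stand above it, with 11 against 7.69 UMIs (0.671 to 2.78 times). For Ifitm3 the endothelial markers served as the scale, and gave 0.503 expected UMIs in astrocyte-like cells against 15 observed (29.8 times, 8.11 to 163), and 3.69 in microglia-like cells against 17 observed (4.61 times, 2.19 to 9.50). Of those 17 UMIs, 9 came from 1 control cell, which the counting interval does not take into account.

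**Figure D3:**
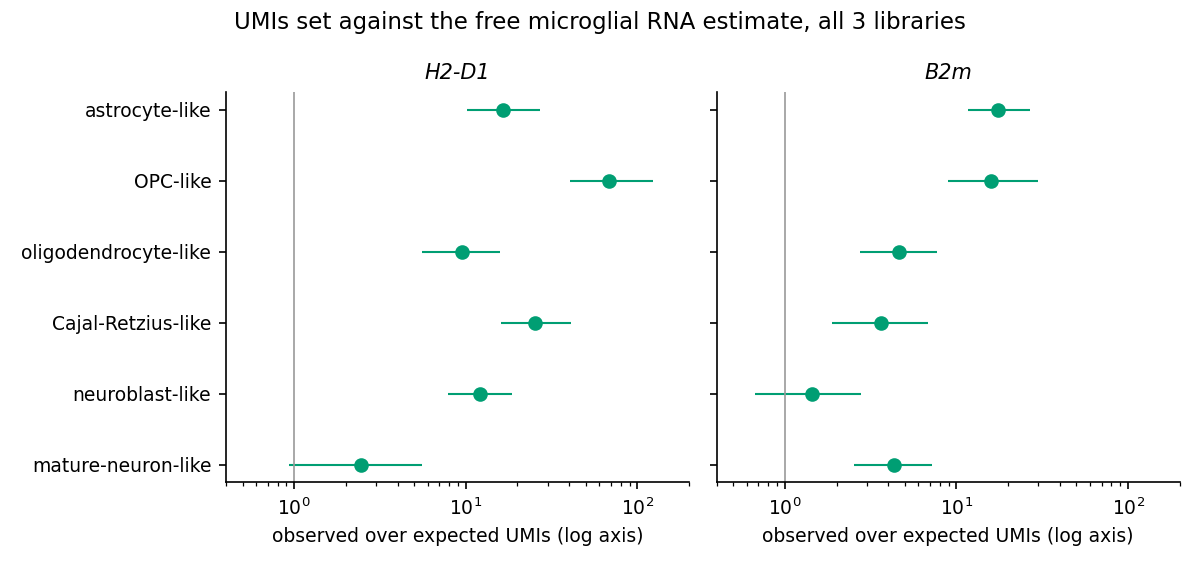
Observed over expected UMIs (log axis) of H2-D1 and B2m in 6 neural classes, with the expectation scaled by C1qa, C1qb and C1qc in the same class, the 3 libraries together, and bars for the 95% counting interval. A value of 1 (grey line) is what free microglial RNA alone would give. H2-D1 in OPC-like cells is the farthest from it at 68.7, and B2m in neuroblast-like cells lies on it.

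In microglia-like cells the runner library was compared with the control library to see whether voluntary running goes with another level of these genes. H2-D1 and H2-K1 were lower in runner, and B2m was close to its control level. The CPM ratio of runner over control was 0.798 for H2-D1 (0.708 to 0.901), 0.793 for H2-K1 (0.646 to 0.974), 0.974 for B2m (0.896 to 1.06) and 1.24 for Bst2 (0.720 to 2.21). Of these 4 genes, which were those with at least 20 UMIs in the class, 0 passed the limit of 1.5-fold in either direction, beside 23.9% of all 5109 genes measured in the same way. The median log2 ratio of those 5109 genes was 0.05, and 11.5% of them had an interval that left out 1, as H2-D1 and H2-K1 did. Ranked by the ratio, H2-D1 stood at percentile 20.8 of those genes and H2-K1 at 20.2. Ifitm3 fell short of 20 UMIs, and its ratio of 0.0957 became 0.308 (0.0279 to 2.15) without the control cell that held 9 UMIs. Without 36 cells of a microglia-like cluster led by Hbb-bs, the runner ratio was 0.823 for H2-D1 (0.729 to 0.930) and 0.827 for H2-K1, whose interval then held 1 (0.674 to 1.02). The 13 microglial markers summed to 47118 CPM in runner, 46863 CPM in aged and 40476 CPM in control microglia-like cells. Markers of erythroid cells (haemoglobins and Alas2) summed to 8980 CPM in runner, 168 CPM in aged and 220 CPM in control, with 0, 1 and 1 of the 5 at 0, and 3401 of the 5190 runner UMIs came from 1 cell. Without the cluster led by Hbb-bs they still summed to 6472 CPM in runner, 154 CPM in aged and 218 CPM in control. Their part in the H2-D1 and H2-K1 ratios was not tested further.

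**Figure D4:**
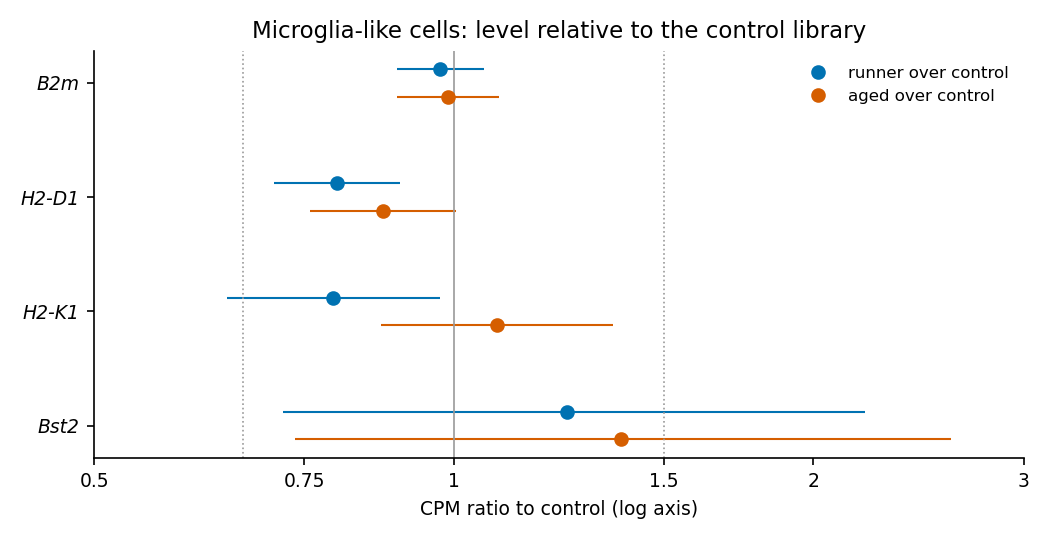
CPM ratio to the control library (log axis) of the 4 measured genes in microglia-like cells, runner above aged for each gene, with bars for the 95% counting interval and dotted lines at the 1.5-fold limit. H2-D1 at 0.798 and H2-K1 at 0.793 in runner lie left of 1 with their intervals, and no gene passes a dotted line.

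The aged library was set against control in the same cells, to ask about age. The CPM ratio of aged over control was 0.989 for B2m (0.897 to 1.09), 0.873 for H2-D1 (from 0.758 to just above 1), 1.09 for H2-K1 (0.869 to 1.36) and 1.38 for Bst2 (0.736 to 2.61). Every one of these intervals held 1, and 0 of the 4 genes passed the 1.5-fold limit, beside 26.1% of 4040 genes. The 4 listed B cell markers summed to 436 CPM in runner, 2315 CPM in aged and 451 CPM in control, with 2, 1 and 2 at 0. In aged 565 of the 689 UMIs were of the antibody light chain Igkc, in 4 cells. Without the cluster led by Hbb-bs, which held nearly all of that Igkc, the sums were 447, 425 and 450.5 CPM in runner, aged and control, and the aged ratio of H2-D1 was 0.879 (0.763 to 1.01). The 2 comparisons share the control library. Per B2m UMI, H2-D1 in microglia-like cells was 0.819 times the control value in runner (0.707 to 0.95) and 0.882 times in aged (0.743 to 1.05).

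The microglia-like class consisted of 5 clusters that took different shares of it in each library, so the heavy chains were also compared within clusters. The 5 shared most of their leading genes, C1qa and Trem2 among them, and each is called here by a leading gene that the other clusters lack. In the Gpr34 cluster, which made up 18.6% of the class in runner, 35.8% in aged and 22.1% in control, H2-D1 had 919 CPM in runner, 775 CPM in aged and 1230 CPM in control. The ratio to control was there 0.747 in runner (0.561 to 0.993) and 0.630 in aged (0.469 to 0.846). H2-K1 in that cluster had 252 CPM in runner, 470 CPM in aged and 499 CPM in control, a ratio of 0.505 in runner (0.301 to 0.836). That cluster therefore held the lowest H2-K1 ratio of runner over control among the 4 clusters compared, while the others had ratios of 0.899, 0.968 and 0.852. In the Rgs1 cluster H2-D1 had 1088 CPM in runner, 1387 CPM in aged and 1288 CPM in control. In the Il1a cluster the chemokines Ccl3 and Ccl4 summed to 9680 CPM in runner, 5299 CPM in aged and 5535 CPM in control, and H2-D1 had 1176, 1370 and 1471 CPM in runner, aged and control. In the Pld4 cluster the H2-D1 ratio of runner over control was 1.02 (0.732 to 1.41). A cluster led by Hbb-bs, with 22, 7 and 7 cells, had the lowest H2-D1 at 265, 173 and 614 CPM in runner, aged and control. With equal weight for each cluster but that one, the H2-D1 ratio was 0.857 in runner and 0.994 in aged.

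**Figure D5:**
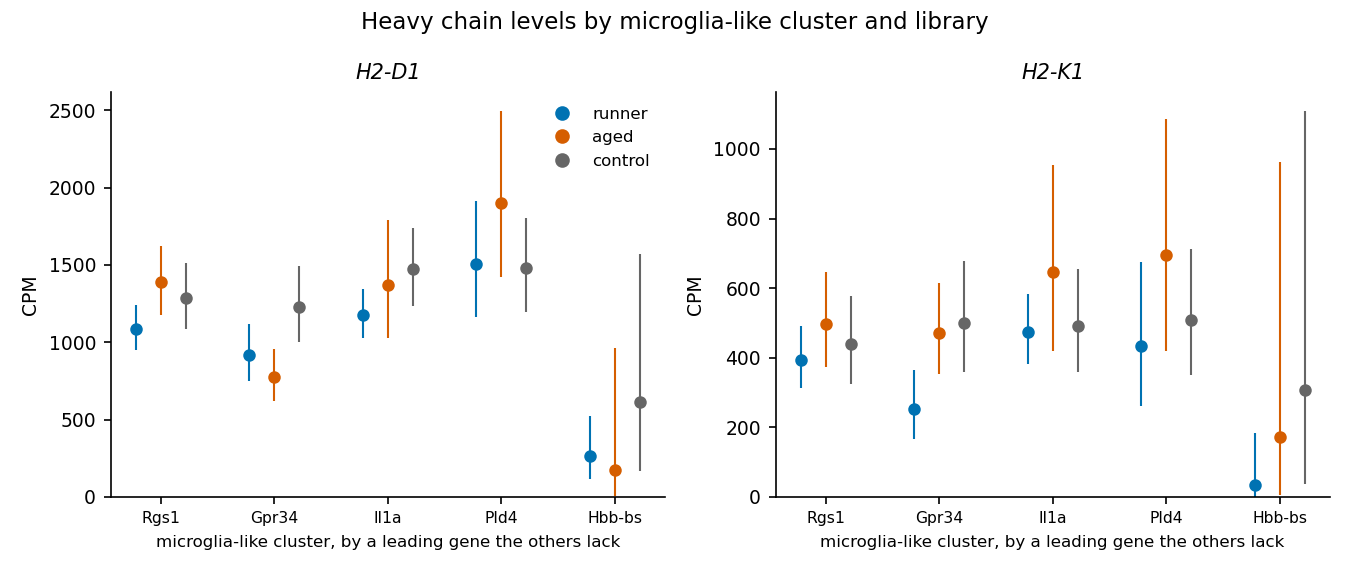
CPM of H2-D1 and H2-K1 in the 5 microglia-like clusters, each named by a leading gene that the others lack, for runner, aged and control, with bars for the 95% counting interval. H2-D1 in the Gpr34 cluster is lower in runner (919 CPM) and aged (775 CPM) than in control (1230 CPM), and the cluster led by Hbb-bs is lowest throughout.

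Outside microglia-like cells few comparisons had enough UMIs. In astrocyte-like cells the runner over control ratio was 0.910 for B2m and 1.08 for H2-D1, both short of 1.5-fold, which 29.5% of genes passed, and the aged ratio of B2m was 0.848, with 27.4% of genes past the limit. In OPC-like cells the runner ratio was 1.32 for B2m and 0.962 for H2-D1 (0.564 to 1.67), where 29.3% of genes passed the limit. The aged ratio in OPC-like cells was 1.16 for H2-D1 and 1.86 for B2m (0.720 to 5.00), so B2m passed the limit, as did 38.9% of genes, with an interval that held 1. In Cajal-Retzius-like cells H2-D1 was at 1.16 in runner, where 28.3% of genes passed the limit, and at 0.527 in aged (0.167 to 1.44), past the limit as were 33% of genes. H2-D1 was past the limit in runner oligodendrocyte-like cells at 1.71 (0.507 to 8.99), as were 34.1% of genes, and in runner neuroblast-like cells at 2.65 (0.689 to 22.6), as were 41.1% of genes. Both intervals held 1, since control had 3 and 2 UMIs. B2m in mature-neuron-like cells was the one gene past the limit whose interval left out 1, at 76.3 CPM in runner (12 UMIs) and 216 CPM in control (13 UMIs), a ratio of 0.353 (0.147 to 0.840), beside 34.8% of genes past the limit. The microglial markers summed to 331 CPM in those runner cells and to 681 CPM in those control cells, with 1 and 4 of the 13 at 0, and their part in the B2m ratio was not tested. In aged oligodendrocyte-like cells none of the 5 genes reached 20 UMIs.

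Around these genes, the peptide supply line of MHC class I was described from a list of 15 genes, all of them listed and 12 measured in microglia-like cells. In runner 3 were past 1.5-fold higher and 0 lower, with a median log2 ratio of 0.30, and in aged 0 were past it in either direction, with a median of 0.20. Of all genes, 14.9% were past the limit higher and 9.02% lower in runner, and 15.3% higher and 10.8% lower in aged. The median of all genes was 0.05 in runner and 0.04 in aged. The loading chaperone Calr had 479 CPM in runner, 531 CPM in aged and 362 CPM in control, at ratios of 1.33 (1.07 to 1.65) in runner and 1.47 (1.16 to 1.87) in aged. Pdia3, the disulfide isomerase of the loading complex, had 739 CPM in runner and 548 CPM in control, a ratio of 1.35 (1.14 to 1.60). The interferon-induced proteasome subunit Psmb8 was lower, at 130 CPM in runner and 189 CPM in control, a ratio of 0.686 (0.487 to 0.967). Its partner subunits did not move together. Psmb9 had 72.7 CPM in runner and 44.5 CPM in control, and Psmb10 had 86.5 and 111 CPM, both with ratio intervals that held 1. By class, the 15 genes summed to 2255 CPM in microglia-like cells, 1581 CPM in OPC-like cells, 894 CPM in Cajal-Retzius-like cells and 597 CPM in mature-neuron-like cells. The sum in OPC-like cells came from the general chaperones, with Pdia3 at 452 CPM, Canx at 397 CPM and Calr at 336 CPM. The inducible subunits Psmb8 and Psmb9 had 0 UMIs there, against 147 and 61.5 CPM in microglia-like cells, and the peptide transporter Tap1 had 1 UMI.

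The other class I heavy chains, summed over all cells of a class, were low in OPC-like and Cajal-Retzius-like cells, though not in these alone. Of 20 such genes 11 were listed, and they summed to 470 CPM in microglia-like cells, 1148 CPM in endothelial-like cells, 1382 CPM in perivascular-macrophage-like cells, 959 CPM in the cluster led by Ccl5 (11 UMIs), 56.4 CPM in Cajal-Retzius-like cells and 27.5 CPM in OPC-like cells (5 UMIs). Fcgrt alone gave 43.4 CPM in Cajal-Retzius-like cells and 655 CPM in perivascular-macrophage-like cells. In oligodendrocyte-like and mature-neuron-like cells none of the 11 had more than 2 UMIs. H2-T23, a non-classical heavy chain, had 104 CPM in microglia-like cells and 1 UMI in OPC-like cells. In microglia-like cells 7 were measured, with 0 past 1.5-fold higher and 2 lower in runner (median log2 ratio 0.14) and 1 higher and 1 lower in aged (median -0.28). H2-Q6 had 32.9 CPM in runner, 16.8 CPM in aged and 66.8 CPM in control, at ratios of 0.492 (0.255 to 0.938) and 0.252 (0.0750 to 0.673). H2-Q4 had 58.8 CPM in runner and 103 CPM in control (0.572, 0.348 to 0.936). Of the MHC class II list 5 of 11 genes were measured, with 1 higher and 2 lower in runner and 2 higher and 1 lower in aged (median log2 ratios -0.26 and 0.04). Its invariant chain Cd74 had 130 CPM in runner, 141 CPM in aged and 75.1 CPM in control, at ratios of 1.73 (1.10 to 2.79) and 1.88 (1.13 to 3.17). The other class II genes did not all follow, since 3 of the 5 ratios were below 1 in runner and 2 in aged. In aged H2-DMb1 was at 1.67 (1.01 to 2.79) and H2-DMa at 0.362 (0.119 to 0.936).

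Interferon-stimulated genes gave few counts. Of 49 on the list, 40 were listed and 9 measured in the runner comparison, with 2 higher and 1 lower (median log2 ratio -0.02), and 7 in the aged comparison, with 0 past 1.5-fold (median -0.24). The chemokine Cxcl10 had 25 UMIs in runner and 6 in control, a ratio of 2.59 (1.04 to 7.72). None of the 9 interferon ligand genes was listed in any library. Of 14 receptor and signalling genes 7 were measured, with 0 higher and 2 lower in runner and 1 higher and 1 lower in aged (median log2 ratios 0.23 and 0.14). Of 12 receptors that bind MHC class I, 5 were listed and 2 measured, with 0 past 1.5-fold in runner and 1 higher and 1 lower in aged. The receptor kinase Jak1 had 81.3 CPM in runner, 70.6 CPM in aged and 142 CPM in control, at ratios of 0.573 (0.377 to 0.869) and 0.497 (0.284 to 0.842). The macrophage chemokine Ccl3 had 1462 CPM in runner and 801 CPM in control (1.82, 1.59 to 2.09), and Ccl4 had 5471, 2671 and 3663 CPM in runner, aged and control.

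Genes induced by tissue dissociation lay on both sides of their control level in runner microglia-like cells and mostly below it in aged ones. Of 14 measured, 1 was past 1.5-fold higher and 0 lower in runner (median log2 ratio -0.03), and 1 higher and 1 lower in aged (median -0.13). In runner 6 ratios were above 1 and 8 below, with 3 and 5 intervals that left out 1. In aged 3 were above 1 and 11 below, with 2 and 7 such intervals. Of all genes, 11.5% in runner and 10.9% in aged had an interval that left out 1. Many of the dissociation genes had high counts, which narrows their intervals. The heat shock gene Hspa1a had 261 CPM in runner, 353 CPM in aged and 153 CPM in control, and the immediate early gene Fosb had 782 CPM in runner and 1124 CPM in control. The part of dissociation in the H2-D1 and H2-K1 ratios was not tested.

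Across the 19 sums of at least 20 cells of a class in a library, B2m was closest to Adamts1 and Tcn2, followed by Ctsd (Pearson r = 0.930 of log2 CPM), Man2b1 (0.917) and Ifngr1 (0.913), the ligand-binding chain of the interferon gamma receptor. H2-D1 was closest to Camk1 (0.964), Jun (0.928), Mgat1 (0.924), Irf1 (0.915), an interferon regulatory factor, and Tagln2 (0.915). H2-K1 was closest to Lyn, Cd164, Grn, Msn and Mlxipl (0.918 to 0.924), and Bst2 to Slc46a1 (0.961), Mlxipl (0.934), Lrba, B2m (0.892) and Msn. Ifitm3 was closest to Naaa (0.878), Fam107a, Sdc4, Soat1 and Tlr3 (0.830). Between the 5 genes, r was 0.898 for B2m and H2-K1, 0.828 for H2-D1 and H2-K1, 0.729 for B2m and H2-D1, and 0.0761 for H2-D1 and Ifitm3. The sums share libraries and depth, 3 of the 19 are microglia-like and none is endothelial-like. With sums of at least 10 cells, which brought in the control endothelial-like cells, 0 of the 5 genes listed for B2m, for Bst2 and for Ifitm3 were the same. Over those 25 sums r was 0.583 for H2-D1 and Ifitm3 and 0.574 for B2m and Ifitm3, the second of which was 0.328 over the 19 sums.

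Most barcodes were set aside for their mitochondrial share, and the 5 genes were also counted there as CPM of nuclear UMIs. In the 2337 runner, 2020 aged and 1829 control barcodes at 10% or more, H2-D1 had 132 CPM in runner, 234 CPM in aged and 326 CPM in control. The ratio to control was 0.404 in runner (0.329 to 0.494) and 0.717 in aged (0.604 to 0.850). H2-K1 stood at 0.444 in runner and 0.621 in aged, B2m at 0.552 and 0.917, and Ifitm3 at 0.298 and 0.559. In the same barcodes the C1q genes summed to 1253 CPM in runner, 1946 CPM in aged and 2079 CPM in control, and the 9 listed endothelial markers to 77.4, 353 and 455 CPM. Microglial and endothelial transcripts were thus scarcer in these runner barcodes, and their part in the ratios was not tested.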

How the data were processed

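Dentate gyri were dissociated with trypsin and sequenced as 10x Chromium 3' version 2 libraries, 1 library per group, per the labels' protocols. Cell Ranger 2.1.1, Seurat 3.1.0 and the build GRCm38 are named per the submitters' processing notes. Which annotation release and cell calling were used was not given in the sources used here. For each library, a table of UMI counts that had not been normalized was deposited under gene symbols. A count table lists no gene seen in very few barcodes, so a gene can be absent from 1 table.

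Barcodes were kept from 200 genes upwards if mitochondrial UMIs stayed below 10%, and Scrublet calls (10 in all, an expected rate of 0.05) were removed. Clusters came from Scanpy 1.11.5 and leidenalg 0.10.2 (2000 variable genes, 30 components, 15 neighbours, resolution 1), without the 5 genes and their pathway lists, and were named from 23 marker lists. Counts were summed per class and library and scaled to CPM, with exact Poisson intervals for levels, exact conditional binomial intervals for ratios and Clopper-Pearson intervals for shares (95%, SciPy 1.17.1). A gene was measured with at least 20 UMIs in the 2 libraries of a class, each with at least 20 cells. A gene at 0 is given its limit at 3 counts. Named list genes are up to 4 per list and direction in microglia-like cells whose interval left out 1, by size, and the 5 most alike by Pearson r of log2(CPM + 20). The genes, lists and rules were chosen with earlier results of these data known. The ratio intervals were checked on simulated counts.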

Additional observations from a re-analysis of the deposited data

How the results depend on the processing

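Each microglia-like CPM ratio was recomputed under 13 settings. The H2-D1 ratio of runner over control stayed below 1 in 13 of 13 (0.785 to 0.905), and so did that of H2-K1 (0.738 to 0.894). B2m in runner ran from 0.958 to 1.13, H2-D1 in aged from 0.831 to 0.994, H2-K1 in aged from 0.948 to 1.20, Bst2 in runner from 1.05 to 1.65 and Bst2 in aged from 1.17 to 2.14. With no mitochondrial limit, B2m in runner was 1.13, H2-D1 in runner 0.905 and Ifitm3 in aged 0.928, and the cause was not tested. Of 130 recomputed ratios, 127 moved by less than their counting interval, 3 moved by more and 8 lay on the other side of 1 from the reported ratio: 5 of B2m in runner, 1 of B2m in aged and 2 of H2-K1 in aged, whose reported intervals held 1. Of the 11 settings that gave an interval, that of the runner ratio held 1 in 1 for H2-D1 and in 4 for H2-K1, and that of the aged ratio of H2-D1 in 9. At the lower of the alternative fold limits, 2 of the 4 genes were past it in runner, as were 49.8% of all genes, and 1 in aged, as were 50.7%. With genes of at least 5 UMIs, where Ifitm3 enters, 1 gene was past 1.5-fold in runner, as were 39.9% of all genes, and 1 in aged, as were 43.4%. That gene was Ifitm3, for which 1 control cell held 9 of 13 UMIs. Of 380 class levels 13 moved by more than their interval, all with no mitochondrial limit. Leaving out the cluster led by Hbb-bs, equal weights per cluster, leaving out the control cell with 9 Ifitm3 UMIs, sums of at least 10 cells and the endothelial scale for free RNA were chosen after seeing the data. No paired analysis was possible because each group was 1 library and no comparison was tested. The shallow endothelial-like and aged neuronal sums limit what can be seen of Ifitm3 and of the neuronal levels.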
